A study of Mus musculus with 18 samples.

Results

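The forkhead box O (Foxo) transcription factors and the regulators of the G1 phase of the cell cycle were examined in the ovaries of young F1 mice. The 10 genes were chosen by symbol from the 30172 genes in the files, and all 10 were found and passed the filter on low values in every comparison. They comprised 4 Foxo factors (Foxo1, Foxo3, Foxo4 and Foxo6), 3 D cyclins (Ccnd1, Ccnd2 and Ccnd3) and 3 inhibitors of cyclin-dependent kinases, CDKs (Cdkn1a, Cdkn1b and Cdkn2c).

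The F1-HHcy females were born to wild-type C57BL/6J dams that ate a diet with 3% methionine, which raises homocysteine in the blood (hyperhomocysteinemia, HHcy), for 4 weeks before mating per the labels. The methods of the study state a longer period. The dams stayed on this diet while pregnant and nursing, and the pups were weaned at Pd21 and not treated themselves. The F1-Control females came from dams of the same strain on a control diet. Whole ovaries were taken on postnatal day 3 (Pd3), Pd7 or Pd21, and poly-A RNA was sequenced as 3 libraries for each of the 6 groups, 18 in all. Pd3 and Pd7 formed batch 1 and Pd21 formed batch 2, so age and batch cannot be told apart for Pd21 against the earlier days. Whether 1 library held 1 pup or several was not given, nor whether the libraries of a group came from different litters. The p-values therefore measure the spread between these libraries. As the diet was given to the dams, this spread may not be that between litters.

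Foxo proteins are held in the cytoplasm after phosphorylation by Akt, and enter the nucleus to switch on genes of cell cycle arrest, stress resistance and metabolism when this signal is low. In the ovary, Foxo3 keeps primordial oocytes dormant and Foxo1 is a factor of granulosa cells in growing follicles. D cyclins activate Cdk4 and Cdk6 and so push a cell through G1, whereas p21 (Cdkn1a), p27 (Cdkn1b) and p18 (Cdkn2c) restrain these kinases or Cdk2.

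The values are FPKM, the fragments of a gene divided by its length and by the library's total, so that levels can be set beside each other between genes. Between 33630547 and 39399215 fragments were recovered per library. A gene was called higher or lower when its adjusted p from limma with Benjamini-Hochberg adjustment over all genes tested was under 0.05. Log2 fold changes are of FPKM + 1, which understates the change of low genes. Their error is the standard error (SE) from limma, and means carry the SD over n = 3 libraries. In a whole ovary, fewer cells of a type and less RNA per cell cannot be told apart. Immediate early genes set 2 libraries apart. In F1-HHcy Pd3 replicate 3 these genes, which respond within minutes to stimulation, summed to 3048 FPKM, against 239 to 409 in the other 5 Pd3 libraries. The same sum was 422 FPKM in F1-HHcy Pd7 replicate 3 and 46.9 to 91.7 in the other 5 Pd7 libraries. The comparisons were therefore also made without these libraries. Leaving out the Pd3 library does not isolate the immediate early genes. Its oocyte and stroma marker sums were also nearer the controls than those of the other F1-HHcy Pd3 libraries.

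The stretches of 250 bases before the transcription start of 4 genes are shown first, because Foxo1 and Ccnd3 were called between the diets at Pd7, Foxo3 and Cdkn1b were called with age in F1-Control, and the 4 stretches differ in their motifs. They are from RefSeq on GRCm38.p6, whose table held 6 of the 10 genes (Foxo1, Foxo3, Ccnd3, Cdkn1a, Cdkn1b and Cdkn2c) and not Foxo4, Foxo6, Ccnd1 or Ccnd2. Capitals mark matches on either strand to the GC box (GGGCGG), the CCAAT box (CCAAT), the TATA box (TATAAA), the forkhead motif (GTAAACA), the cAMP response element (TGACGTCA), the AP-1 site (TGAGTCA) and the E-box (CACGTG). Matches of different motifs did not overlap in these 4 stretches.

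Foxo1, chr3:52268087-52268336, plus strand: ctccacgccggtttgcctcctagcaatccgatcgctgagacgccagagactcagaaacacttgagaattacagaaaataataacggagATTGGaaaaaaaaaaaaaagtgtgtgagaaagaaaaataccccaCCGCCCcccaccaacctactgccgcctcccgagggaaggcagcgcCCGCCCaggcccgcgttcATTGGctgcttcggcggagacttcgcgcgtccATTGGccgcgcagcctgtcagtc
Foxo3, chr10:42276696-42276945, minus strand: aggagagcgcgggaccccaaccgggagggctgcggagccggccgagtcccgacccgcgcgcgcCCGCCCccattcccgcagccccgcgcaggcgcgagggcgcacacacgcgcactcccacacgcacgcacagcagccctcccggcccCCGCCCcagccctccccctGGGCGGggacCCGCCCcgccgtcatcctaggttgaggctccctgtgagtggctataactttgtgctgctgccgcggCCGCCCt
Ccnd3, chr17:47504801-47505050, plus strand: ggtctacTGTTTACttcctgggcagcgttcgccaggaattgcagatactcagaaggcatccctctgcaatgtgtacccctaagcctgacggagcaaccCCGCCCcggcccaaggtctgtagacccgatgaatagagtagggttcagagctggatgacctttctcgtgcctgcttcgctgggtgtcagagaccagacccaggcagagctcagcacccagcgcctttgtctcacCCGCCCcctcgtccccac
Cdkn1b, chr6:134920151-134920400, plus strand: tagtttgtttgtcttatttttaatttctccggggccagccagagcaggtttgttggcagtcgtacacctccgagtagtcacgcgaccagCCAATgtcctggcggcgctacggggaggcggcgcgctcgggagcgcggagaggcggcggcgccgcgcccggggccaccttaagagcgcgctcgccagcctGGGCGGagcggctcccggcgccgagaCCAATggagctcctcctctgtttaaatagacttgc

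The Foxo3 stretch held 5 GC boxes and none of the other motifs. That of Foxo1 held 2 GC boxes and 3 CCAAT boxes, and that of Cdkn1b held 1 GC box and 2 CCAAT boxes. The forkhead motif was found once, before the first of 2 Ccnd3 starts, which also had 2 GC boxes. The stretch before the second Ccnd3 start, not shown, held no forkhead motif, 1 GC box and 1 CCAAT box and was 64.8% G and C. Which start was used in these ovaries was not tested. Among all 32851 stretches of this length, 32.7% held a GC box, 33.8% a CCAAT box and 3.17% the forkhead motif. The Foxo3 stretch was 76.4% G and C, that of Cdkn1b 64.4%, the one shown for Ccnd3 59.6% and that of Foxo1 56.0%, against a median of 52.4% over all. These matches describe the sequence and are not binding sites.

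**Figure D1:**
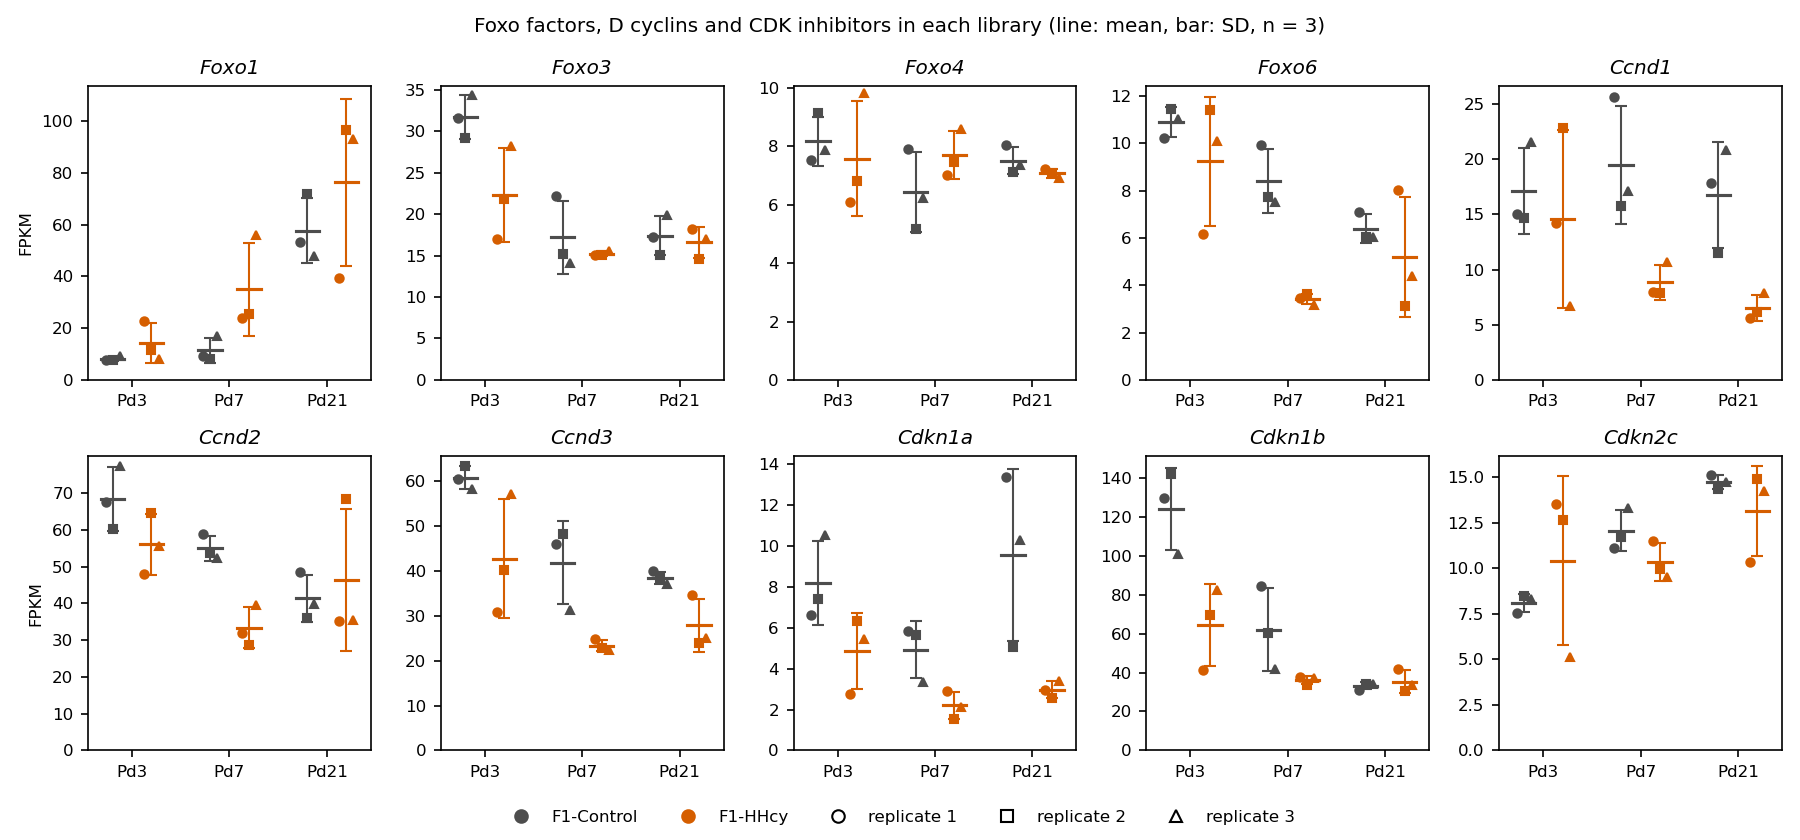
FPKM of each of the 10 genes (vertical axis from 0, a scale of its own for each gene) in every library by postnatal day, with grey for F1-Control, orange for F1-HHcy, 1 marker shape per replicate, lines for means and bars for SD (n = 3). At Pd7 the F1-HHcy libraries lie above F1-Control for Foxo1 and below it for Foxo6, the 3 D cyclins, Cdkn1a and Cdkn1b.

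Among the Foxo factors, Foxo1 was the most variable across the 18 libraries, with an SD of 1.27 in log2(FPKM + 1), and Foxo4 the least, with 0.19. The Foxo1 gene lies at chr3:52268336-52353221 on the plus strand (GRCm38, GENCODE M21). In the F1-Control group, Foxo1 measured 7.84, 7.73 and 9.12 FPKM at Pd3, 9.28, 8.05 and 17.0 at Pd7 and then 53.3, 71.8 and 47.9 at Pd21. Replicate 3 of Pd7 was the highest control library of the first week, and all Pd21 controls exceeded it. In the F1-HHcy group, Foxo1 measured 22.8, 11.7 and 8.10 FPKM at Pd3, 24.0, 25.4 and 55.9 at Pd7 and then 39.3, 96.6 and 93.2 at Pd21. Thus every F1-HHcy library at Pd7 lay above every control of that day, while the diets overlapped at Pd3 and at Pd21. At Pd7 the mean was 35.1 ± 18.02 FPKM (SD, n = 3) against 11.4 ± 4.83 (SD, n = 3), a ratio of 3.07, and Foxo1 rose by 1.495 on the log2 scale (SE 0.34, adjusted p = 0.0219, limma). At Pd3 the log2 fold change was 0.60 (SE 0.32, adjusted p = 0.301), and without the library with high immediate early genes it was 0.91 (adjusted p = 0.0307). At Pd21 it was 0.31 (SE 0.34, unadjusted p = 0.378 from the same fit across all genes).

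Foxo3 followed another course. The gene lies at chr10:42181841-42276755 on the minus strand. In F1-Control ovaries it measured 31.6, 29.1 and 34.4 FPKM at Pd3, 22.2, 15.2 and 14.2 at Pd7 and then 17.2, 15.1 and 19.9 at Pd21. F1-HHcy ovaries had 17.0, 21.8 and 28.3 FPKM at Pd3, 15.1, 15.1 and 15.6 at Pd7 and then 18.2, 14.6 and 17.0 at Pd21. The Pd3 controls were the highest libraries of all, above every F1-HHcy library of that day, and the diets overlapped at Pd7 and Pd21. The Pd3 log2 fold change was -0.51 (SE 0.18, adjusted p = 0.154), and -0.69 without the library with high immediate early genes (adjusted p = 0.0112). At Pd7 the difference was -0.14 (SE 0.17, adjusted p = 0.615).

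Foxo6, which lacks the shuttling out of the nucleus that is typical of the family, lies at chr4:120267079-120287349 on the minus strand. It measured 10.2, 11.4 and 11.03 FPKM in Pd3 controls, 9.94, 7.73 and 7.53 in Pd7 controls, and 7.09, 6.04 and 6.05 in Pd21 controls. In F1-HHcy ovaries the values were 6.17, 11.4 and 10.1 FPKM at Pd3, 3.46, 3.61 and 3.18 at Pd7 and then 8.01, 3.14 and 4.38 at Pd21. The Pd7 groups were far apart, the lowest control being over the highest F1-HHcy library by more than the SD of either group. Foxo6 fell by 1.08 on the log2 scale at Pd7 (SE 0.16, adjusted p = 0.00456, limma), with means of 8.40 ± 1.34 and 3.42 ± 0.22 FPKM (SD, n = 3). It was the one called gene of the 10 that passed in all 6 fits that left out 1 Pd7 library, with adjusted p from 0.00377 to 0.0269.

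Foxo4, a factor on the X chromosome at chrX:101254528-101260873 on the plus strand, was the flattest of the 10 genes. Its group means lay between 6.43 ± 1.38 FPKM in Pd7 controls and 8.18 ± 0.84 in Pd3 controls (SD, n = 3), and the ranges of all neighbouring groups in the order of means overlapped. The diet difference was -0.12 at Pd3 (SE 0.18), 0.24 at Pd7 (SE 0.17) and -0.08 at Pd21 (SE 0.14) on the log2 scale, with no adjusted p below 0.363.

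The make-up of the Foxo family differed between days and, at Pd7 and in part at Pd3, between diets. Foxo3 made up 53.7% ± 2.55 (SD, n = 3) of the summed Foxo FPKM in Pd3 controls, 39.6% ± 7.09 in Pd7 controls and 19.9% ± 4.67 in Pd21 controls. Foxo1 contributed 13.9% ± 0.60, 26.3% ± 10.1 and 64.3% ± 6.60 in the same groups. At Pd7 the Foxo1 share was 54.9% ± 10.6 in F1-HHcy ovaries, with libraries from 48.4% to 67.1%, whereas the Pd7 controls ranged from 18.8% to 37.8%. The Foxo6 share at Pd7 was 19.4% ± 2.36 in controls and 5.94% ± 1.84 in F1-HHcy ovaries. At Pd3 the Foxo3 share was 32.6% to 50.2% in F1-HHcy ovaries, narrowly below the 50.7% to 55.2% of the controls. The Foxo1 shares of that day overlapped, at 14.4% to 43.8% in F1-HHcy ovaries and 13.5% to 14.6% in controls. At Pd21 the diets overlapped in the share of every Foxo gene. The shares were not tested separately, since they restate the levels given above. The rank of Foxo1 among the 10 genes by mean FPKM was 7 in Pd3 and Pd7 controls, 2 in Pd7 F1-HHcy ovaries and 1 in both Pd21 groups.

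**Figure D2:**
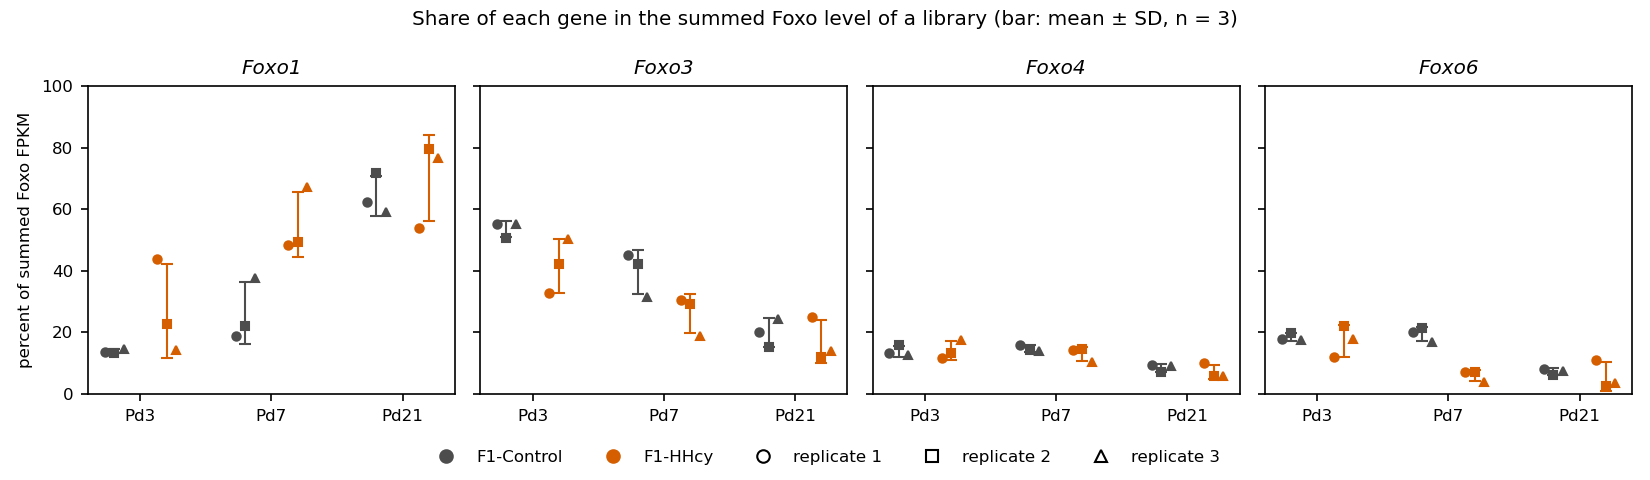
Share of each Foxo gene (percent of the FPKM summed over the 4 Foxo genes, vertical axis) in each library by day, grey for F1-Control and orange for F1-HHcy, with bars for mean ± SD (n = 3). The Foxo1 share at Pd7 is 48.4% to 67.1% in F1-HHcy ovaries and 18.8% to 37.8% in controls, and Foxo3 holds the largest share in Pd3 controls.

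The D cyclins were the group in which all members passed the test at Pd7. Summed over the 3 genes, the level was 116.3 ± 14.9 FPKM in Pd7 controls and 65.6 ± 6.76 in Pd7 F1-HHcy ovaries (SD, n = 3), with ranges of 100.8 to 130.4 and 59.4 to 72.8. Their proportions differed little at that day, with Ccnd2 at 47.6% ± 3.84 in controls and 50.8% ± 3.26 in F1-HHcy ovaries and Ccnd3 at 35.8% in both.

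Cyclin D2 (Ccnd2), the D cyclin that granulosa cells need to divide, lies at chr6:127125162-127152193 on the minus strand. It measured 67.6, 60.2 and 77.4 FPKM in Pd3 controls, 58.8, 53.6 and 52.4 in Pd7 controls, and 48.5, 36.0 and 39.8 in Pd21 controls. F1-HHcy ovaries had 48.0, 64.5 and 55.7 FPKM at Pd3, 32.0, 28.7 and 39.6 at Pd7 and then 35.1, 68.5 and 35.4 at Pd21. Only the Pd7 groups were separate, and 1 Pd21 F1-HHcy library, replicate 2, stood above all others of that day. Ccnd2 fell by 0.71 on the log2 scale at Pd7 (SE 0.15, adjusted p = 0.0186, limma). The differences at Pd3 (-0.29, SE 0.14) and Pd21 (0.10, SE 0.26) did not pass.

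Cyclin D3 (Ccnd3), at chr17:47505051-47599691 on the plus strand, measured 60.4, 63.4 and 58.3 FPKM in Pd3 controls, 46.0, 48.2 and 31.3 in Pd7 controls, and 39.9, 38.4 and 37.1 in Pd21 controls. In F1-HHcy ovaries it measured 30.9, 40.2 and 57.0 FPKM at Pd3, 24.7, 22.8 and 22.4 at Pd7 and then 34.6, 24.0 and 24.97 at Pd21. The controls lay above the F1-HHcy libraries without overlap on all 3 days, narrowly so for F1-HHcy replicate 3 at Pd3. Ccnd3 fell by 0.79 at Pd7 (SE 0.18, adjusted p = 0.0206, limma). The log2 fold change was -0.54 at Pd3 (SE 0.20, adjusted p = 0.178) and -0.47 at Pd21 (SE 0.16, adjusted p = 0.410). Without the Pd3 library with high immediate early genes it was -0.77 (adjusted p = 0.00631).

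Cyclin D1 (Ccnd1), the D cyclin most directly induced by growth factors, lies at chr7:144929931-144939925 on the minus strand. It measured 15.1, 14.7 and 21.6 FPKM in Pd3 controls, 25.6, 15.8 and 17.1 in Pd7 controls, and 17.8, 11.5 and 20.9 in Pd21 controls. In F1-HHcy ovaries it measured 14.3, 22.8 and 6.71 FPKM at Pd3, 7.95, 7.88 and 10.7 at Pd7 and then 5.63, 6.12 and 7.83 at Pd21. The Pd3 F1-HHcy libraries spanned the control range and beyond, with the lowest value in replicate 3, whereas the diets were separate at Pd7 and Pd21. Ccnd1 fell by 1.04 on the log2 scale at Pd7 (SE 0.20, adjusted p = 0.0119, limma) and by 1.21 at Pd21 (SE 0.23, adjusted p = 0.0330), with ratios of control to F1-HHcy means of 2.21 and 2.57. It was the only one of the 10 genes called on 2 days. At Pd3 the difference was -0.34 (SE 0.38), and 0.09 without replicate 3 of F1-HHcy (adjusted p = 0.791).

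Of the CDK inhibitors, Cdkn1b (p27), at chr6:134920401-134925513 on the plus strand, had the highest mean of the 10 genes in both diets at Pd3 and Pd7. It measured 129.7, 141.9 and 100.8 FPKM in Pd3 controls, 84.3, 60.3 and 41.8 in Pd7 controls, and 31.3, 34.2 and 34.2 in Pd21 controls. F1-HHcy ovaries had 41.2, 69.6 and 82.2 FPKM at Pd3, 37.7, 33.8 and 37.3 at Pd7 and then 41.9, 30.7 and 33.4 at Pd21. All 3 Pd3 controls lay above every other library, the diets did not overlap at Pd3 or Pd7, and they overlapped at Pd21. The log2 fold change was -0.98 at Pd3 (SE 0.25, adjusted p = 0.0818), -0.71 at Pd7 (SE 0.22, adjusted p = 0.0666) and 0.08 at Pd21 (SE 0.15). None of these passed in the fit within a day. In a model of all 18 libraries the Pd3 difference had an adjusted p of 0.0223, and over 7 alternatives it ranged from 0.0223 to 0.205. Without the Pd3 library with high immediate early genes the Pd3 value was -1.18 (adjusted p = 0.0105).

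Cdkn1a (p21), the inhibitor induced by p53 after DNA damage, lies at chr17:29090976-29100727 on the plus strand. It measured 6.64, 7.43 and 10.5 FPKM in Pd3 controls, 5.82, 5.64 and 3.33 in Pd7 controls, and 13.4, 5.06 and 10.3 in Pd21 controls. In F1-HHcy ovaries the values were 2.76, 6.33 and 5.46 FPKM at Pd3, 2.89, 1.55 and 2.15 at Pd7 and then 2.96, 2.57 and 3.38 at Pd21. The controls were higher without overlap on each of the 3 days, and varied most at Pd21. Cdkn1a fell by 0.88 on the log2 scale at Pd7 (SE 0.22, adjusted p = 0.0343, limma). The Pd21 means differed most, at 9.56 ± 4.20 FPKM against 2.97 ± 0.40 (SD, n = 3), a ratio of 3.22, and the log2 value of -1.33 (SE 0.30, adjusted p = 0.0766) did not pass. Over 7 alternatives its adjusted p ranged from 0.0149 to 0.281, the lowest being that of a model of all 18 libraries. The Pd7 call was lost in that model (adjusted p = 0.0651). At Pd3 the log2 fold change was -0.69 (SE 0.27, adjusted p = 0.196).

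Cdkn2c (p18), an inhibitor of Cdk4 and Cdk6 at chr4:109660876-109667189 on the minus strand, measured 7.56, 8.48 and 8.33 FPKM in Pd3 controls and 13.5, 12.7 and 5.12 in Pd3 F1-HHcy ovaries. Replicate 3 of F1-HHcy was the lowest Pd3 library and the other 2 were the highest. The log2 fold change was 0.23 (SE 0.31, adjusted p = 0.703), and 0.63 without that replicate (adjusted p = 0.00879). Without replicate 1 of F1-HHcy it was 0.0051 (adjusted p = 0.996, limma). Means were 12.1 ± 1.12 and 10.3 ± 1.05 FPKM at Pd7 and 14.8 ± 0.38 and 13.2 ± 2.47 at Pd21 for F1-Control and F1-HHcy (SD, n = 3), and neither day passed the test.

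Counted together, 6 of the 10 genes were called between the diets at Pd7, 1 higher and 5 lower, beside 11.9% of the 13299 genes tested (5.88% higher and 5.98% lower). The diets did not overlap for 7 of the 10 at Pd7, beside 39% of all genes. At Pd3, 0 of 10 were called by limma, beside 3.07% of 13277 genes (1.64% higher and 1.43% lower). An unadjusted p under 0.05 was reached by 4 of 10 (Foxo3, Ccnd3, Cdkn1a and Cdkn1b), beside 22.4% of all genes. The same 4 genes did not overlap between the diets at Pd3, beside 27.9% of all genes. At Pd3, limma-voom also called 0. Without F1-HHcy replicate 3, 5 of 10 were called at Pd3 (Foxo1, Foxo3, Ccnd3, Cdkn1b and Cdkn2c, with the values given above), and so were 21.6% of all genes. The other 5 then had adjusted p-values of 0.0853 for Cdkn1a, 0.138 for Foxo4, 0.221 for Ccnd2, 0.292 for Foxo6 and 0.791 for Ccnd1. That replicate had a primordial oocyte marker sum of 411 FPKM, against 145 and 248 in the other F1-HHcy Pd3 libraries and 423.0 to 444.2 in controls. Its theca and stroma sum of 364 FPKM lay within the control range of 269 to 379, and its growing oocyte sum of 1358 FPKM above that of 705 to 1051. Leaving it out thus also removes a library near the controls in some markers, and the part of this was not tested. Each of the 5 genes called without it passed in only 1 of the 6 Pd3 fits that left out 1 library. Without F1-HHcy replicate 1, for example, Foxo1 stood at 0.22 on the log2 scale (adjusted p = 0.607, limma). At Pd21, 1 of 10 was called, beside 2.23% of 13350 genes, none of which was higher, and 3 of 10 did not overlap (Ccnd1, Ccnd3 and Cdkn1a), beside 10.5%. By a criterion of an unadjusted p below 0.05 and an absolute log2 fold change of more than 0.58, 2 of 10 passed at Pd3 (Cdkn1a and Cdkn1b), 7 at Pd7 (the 6 called genes and Cdkn1b) and 2 at Pd21 (Ccnd1 and Cdkn1a), beside 9.74%, 16.4% and 5.14% of all genes. The median log2 fold change of the 10 was -0.31 at Pd3, -0.71 at Pd7 and -0.12 at Pd21, beside medians of -0.03, 0.00 and -0.01 over all genes tested.

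**Figure D3:**
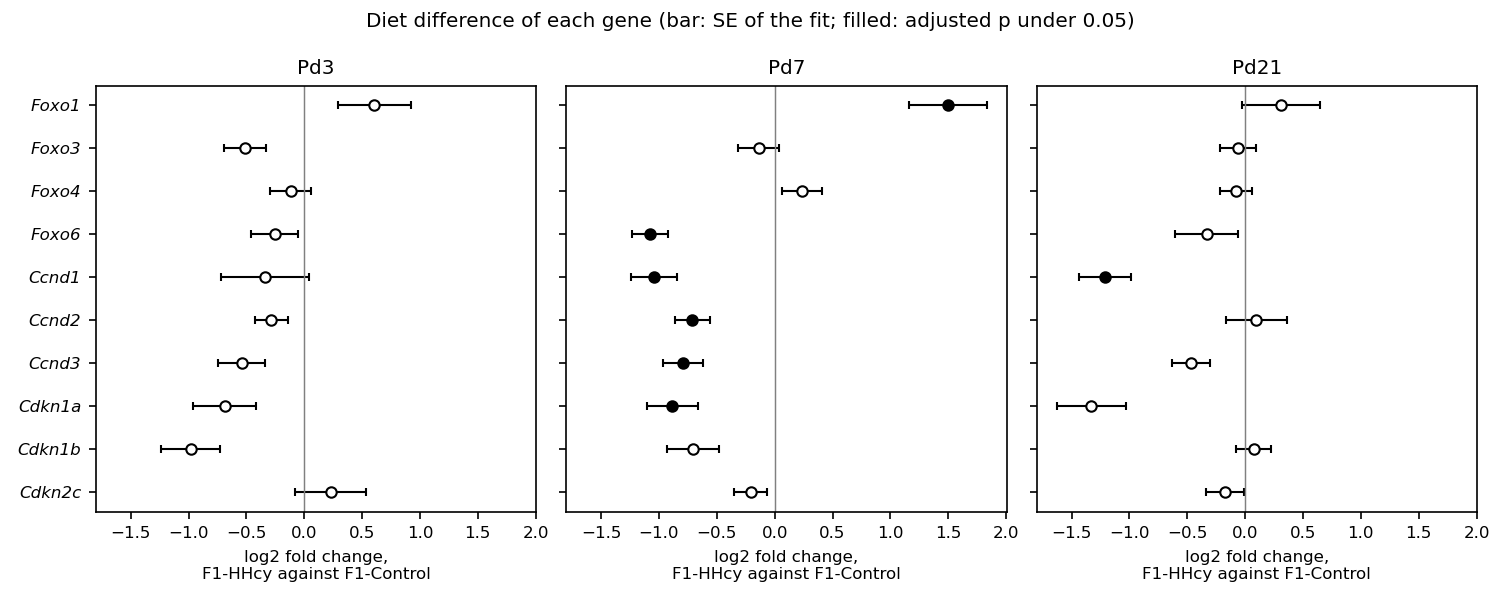
Log2 fold change of FPKM + 1, F1-HHcy against F1-Control (horizontal axis), for each gene at Pd3, Pd7 and Pd21, with bars for the SE of the limma fit and filled points for an adjusted p under 0.05. At Pd7, Foxo1 lies at 1.495 and Foxo6, Ccnd1, Ccnd2, Ccnd3 and Cdkn1a lie between -1.08 and -0.71, and Ccnd1 alone is filled at Pd21.

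Several of these calls did not hold in every fit that left out 1 library. Each such fit also has fewer libraries, so a lost call need not point to the library left out. At Pd7, Foxo1 lost its call without F1-HHcy replicate 3 (adjusted p = 0.0601), F1-Control replicate 1 (0.0617) or F1-Control replicate 2 (0.0953). Ccnd1 lost it only without F1-HHcy replicate 1 (0.0513), and Ccnd2 without F1-HHcy replicate 1 (0.0855), F1-HHcy replicate 2 (0.0880) or F1-Control replicate 1 (0.0567). Ccnd3 passed only without F1-Control replicate 3 (0.00347) and reached 0.0611 to 0.0703 without any 1 of the other 5. Cdkn1a passed without F1-Control replicate 3 (0.00942) or F1-HHcy replicate 1 (0.0471) and reached 0.0816 to 0.127 otherwise. Cdkn1b passed only without F1-Control replicate 3 (0.00967). At Pd21 the Ccnd1 call held only without F1-Control replicate 2 (0.0198) and reached 0.0634 to 0.458 without any 1 of the other 5, and Cdkn1a passed without that same control (0.0120). Without F1-HHcy Pd7 replicate 3, which had the high immediate early sum, 3 of the 10 genes were called at Pd7 (Foxo6, Ccnd1 and Ccnd2), and Foxo1 stood at 1.11 on the log2 scale. The number of all genes called also moved between the fits that left out 1 Pd7 library, over a range given below. The direction of all 6 called genes at Pd7 was the same in each of the 6 fits. With no filter on low values, none of the 10 genes was called on any day (adjusted p = 0.0528 to 0.135 for the 6 genes at Pd7 and 0.159 for Ccnd1 at Pd21).

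Whether the diet difference itself changed between days was tested for each gene with an F-test over all 18 libraries. None of the 10 genes passed, beside 5.28% of 14607 genes, and the lowest adjusted p-values from limma were 0.147 for Cdkn1b, 0.225 for Foxo6 and 0.242 for Ccnd2. At an unadjusted p under 0.05, these same 3 of 10 genes passed, beside 20.5% of all genes, and limma-voom called 0 of the 10. Without F1-HHcy Pd3 replicate 3, Ccnd1 (adjusted p = 0.0499) and Cdkn2c (adjusted p = 0.0177) passed. A larger diet effect at Pd7 than at the other days is therefore not shown for these genes by the full set of libraries.

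Between Pd3 and Pd7, which share a batch, Foxo3 and Cdkn1b fell in F1-Control ovaries. Foxo3 fell by 0.87 on the log2 scale (SE 0.18, adjusted p = 0.0144, limma) and Cdkn1b fell by 1.03 (SE 0.26, adjusted p = 0.0288), with a ratio of the Pd7 to the Pd3 mean of 0.50. The same Pd3 and Pd7 libraries enter the comparisons of diet and of age. These were 2 of 10 genes, beside 12.6% of 13998 genes called (6.03% higher and 6.58% lower), and the days did not overlap for 7 of 10, beside 38.6%. In F1-HHcy ovaries Foxo6 fell by 1.17 (SE 0.18, adjusted p = 0.0132), Ccnd2 by 0.73 (SE 0.15, adjusted p = 0.0259) and Ccnd3 by 0.80 (SE 0.20, adjusted p = 0.0437), 3 of 10 beside 4.44% (2.13% higher and 2.31% lower), and the days did not overlap for 6 of 10, beside 30.8%. The Foxo1 log2 fold change with age was 0.37 in F1-Control (SE 0.37, adjusted p = 0.524) and 1.26 in F1-HHcy ovaries (SE 0.37, adjusted p = 0.0689). No label links single F1-Control libraries of Pd3 to those of Pd7. A pairing by replicate number was taken from these same data, so a fit that uses it gives no independent support. With these numbers as a block in a fit of those 6 libraries alone, 4 genes were called, beside 19.3% of 13336 genes called in that fit. Ccnd3 (-0.55, adjusted p = 0.0197, limma) and Cdkn2c (0.52, adjusted p = 0.0295) were the additional ones. In F1-Control, Foxo3 lost its call without Pd3 replicate 1 (0.0635), Pd3 replicate 3 (0.0508) or Pd7 replicate 3 (0.0669), and Cdkn1b kept it only without Pd3 replicate 3 (0.0447) or Pd7 replicate 1 (0.0121). For F1-HHcy, 7 of the 10 genes were called without Pd3 replicate 1, 2 without Pd7 replicate 3, 1 without Pd3 replicate 3 and 0 without any 1 of the other 3, and 0 were called in a fit of the 6 F1-HHcy libraries alone. The number of all genes called also moved widely between these fits, over a range given below. These counts are therefore not a result about the 10 genes alone.

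Genes around the 10 were described by 7 lists, each to be read against the 11.9% of all genes called at Pd7. The lists were written from general knowledge, but with earlier results of these data known, so their shares are a description. Of 18 tested Foxo target genes, 2 (11.1%) were called at Pd7, which is near that share, both higher: Fbxo32, a ubiquitin ligase of muscle wasting, with means of 3.18 and 8.45 FPKM for F1-Control and F1-HHcy (log2 fold change 1.18, SE 0.16, adjusted p = 0.00336), and Pdk4, a kinase that shuts down pyruvate use, with 2.05 and 4.86 FPKM (0.95, SE 0.17, adjusted p = 0.00972). The list median was 0.19 at Pd7, 0.08 at Pd3 and -0.02 at Pd21. Of 16 tested kinases and phosphatases upstream of Foxo, 1 (6.25%) was called at Pd7, Pik3cd, a catalytic subunit of PI3 kinase, from 7.58 to 15.5 FPKM (0.94, SE 0.21, adjusted p = 0.0201). The list had medians of 0.02, 0.08 and -0.01 on the 3 days in order of age.

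Among 6 tested genes of a list of other CDK inhibitors with Skp2 and Cks1b, 3 (50%) were called at Pd7, all lower. Cdkn1c (p57), an imprinted inhibitor, had means of 36.3 FPKM in controls and 11.9 in F1-HHcy ovaries and fell by 1.495 on the log2 scale (SE 0.21, adjusted p = 0.00402). Cdkn2a, which encodes p16 and p19Arf, had 5.48 and 0.967 FPKM and fell by 1.71 (SE 0.27, adjusted p = 0.00658), and it also fell by 1.46 at Pd3 (SE 0.27, adjusted p = 0.0386). Cdkn3, a CDK-associated phosphatase, fell by 0.65 at Pd7 (SE 0.18, adjusted p = 0.0459). The list median was -0.61 at Pd7, -0.17 at Pd3 and -0.01 at Pd21.

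Downstream of the D cyclins, 0 of 8 G1 kinases and E cyclins and 0 of 12 pocket proteins and E2f factors were called by limma at Pd7, with medians of -0.12 and -0.03, and 1 and 0 of them had an unadjusted p under 0.05, beside 31.5% of all genes (Ccne1, log2 fold change -0.56, SE 0.16, adjusted p = 0.0506). Of 14 S phase and mitosis genes, 13 had a Pd7 value below 0 and 1 (7.14%) was called, Rrm2, a subunit of ribonucleotide reductase, which fell by 0.69 (SE 0.18, adjusted p = 0.0387), and the list median was -0.43. At Pd21, 13 of these 14 lay above 0 with a median of 0.07 and none called. Of 12 tested p53 target genes, 3 (25%) were called at Pd7, of which Aen fell by 1.18 (SE 0.19, adjusted p = 0.00678), Pmaip1 fell by 1.11 (SE 0.19, adjusted p = 0.00789) and Trp53inp1 rose by 0.61 (SE 0.17, adjusted p = 0.0461). Aen, an exonuclease induced in apoptosis, also fell at Pd3 by 1.11 (SE 0.18, adjusted p = 0.0287), and Aen and Cdkn2a were the only genes of the 7 lists called on that day. No gene of any of the 7 lists was called by limma at Pd21, where 1 had an unadjusted p under 0.05, beside 6.85% of all genes, Cdkn2b, an inhibitor of Cdk4 and Cdk6 (log2 fold change -1.14, SE 0.28, adjusted p = 0.119).

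**Figure D4:**
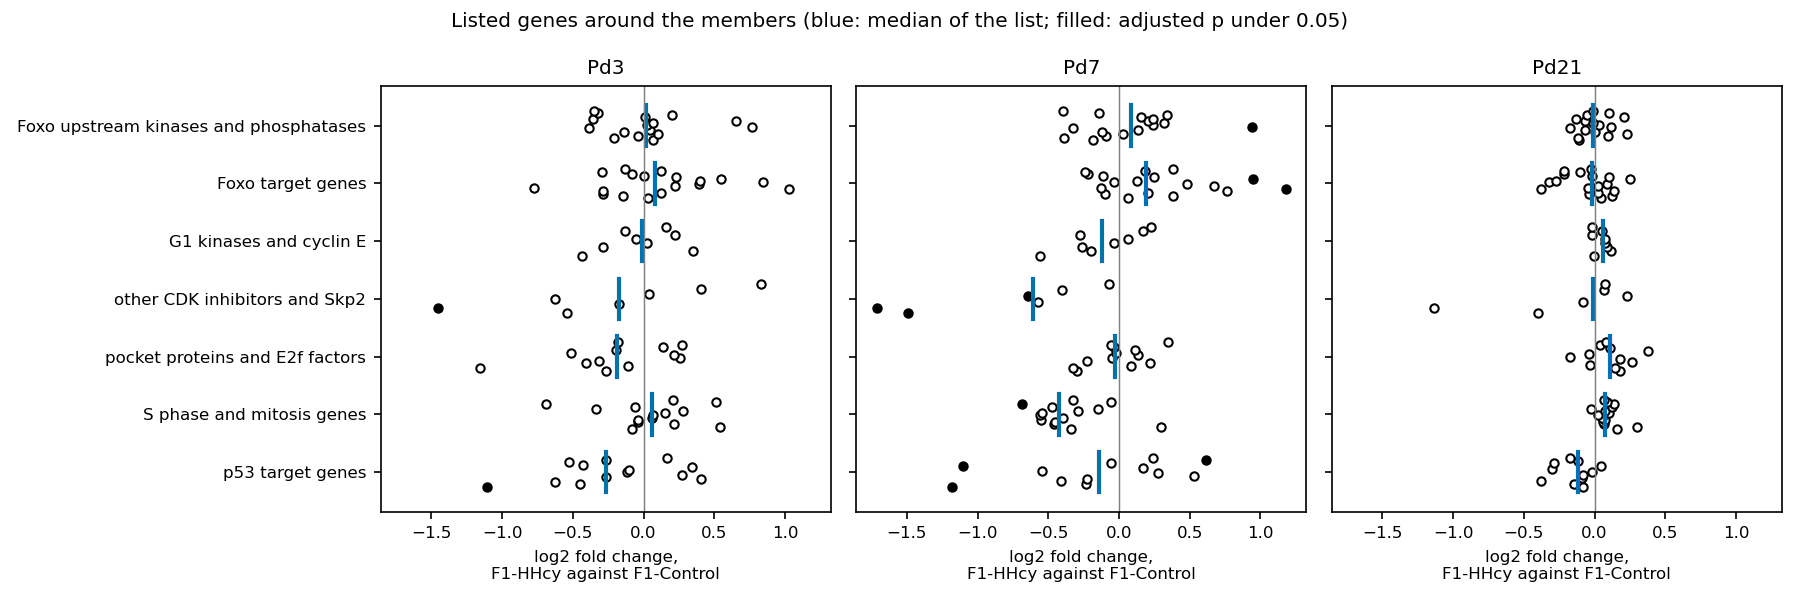
Log2 fold change of FPKM + 1, F1-HHcy against F1-Control (horizontal axis), for each tested gene of 7 lists at Pd3, Pd7 and Pd21, with a blue bar at the list median and filled points for an adjusted p under 0.05. The medians at Pd7 are -0.61 for the other CDK inhibitors and -0.43 for S phase and mitosis genes, and none of the points at Pd21 is filled.

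Some markers of ovarian cell types also differed between the diets, with directions that varied by list and by day. Whether their levels changed together with those of the 10 genes was not tested. Of 9 primordial oocyte markers, such as Ddx4 and Sohlh1, 7 were lower and 1 was higher in F1-HHcy ovaries at Pd7 and 0 were called at Pd3. Their summed level ranged from 423.0 to 444.2 FPKM in Pd3 controls and from 145 to 411 in Pd3 F1-HHcy ovaries, where replicate 3 was the highest, and from 194 to 338 against 87.6 to 122.7 at Pd7. At Pd21 the ranges overlapped, at 105.6 to 134.9 and 103 to 151. None of the markers averaged 0, the lowest group mean being Sohlh2 at 0.60 FPKM in Pd21 F1-HHcy ovaries. Like these sums, the group means of Cdkn1b and Foxo3 were highest in the Pd3 controls, and so were those of Foxo4, Foxo6, Ccnd2 and Ccnd3. Growing oocyte markers moved the other way at Pd3, where their sum was 705 to 1051 FPKM in controls and 1358 to 2194 in F1-HHcy ovaries, and 2 of 8 were called, both higher (Gdf9, from 40.3 to 155.8 FPKM, and Zp3, from 170.0 to 377 FPKM). At Pd7 the sums were 1786 to 2890 and 1184 to 1699.5 FPKM, and 4 of 8 were called, Bmp15 and Oosp1 higher and Zp2 and Ooep lower. At Pd21 these sums overlapped, and limma called 0 of the 8, none of which had an unadjusted p under 0.05. The part of the cells marked by either list in the differences of the 10 genes was not tested.

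At Pd3, 2 of 8 tested granulosa markers were called higher (Inha and Amh), with sums of 199 to 221 FPKM in controls and 272 to 575 in F1-HHcy ovaries. Of 9 granulosa markers, 3 were called at Pd7, all higher, with sums of 279.7 to 596.0 FPKM in controls and 593.8 to 995.3 in F1-HHcy ovaries. Amhr2 (log2 fold change -0.18) and Inhbb (-0.19) lay below 0 at Pd7 without a call. Foxl2 (0.34, adjusted p = 0.202, limma) was not called either. The highest sum of that day and the highest Foxo1 level were both in F1-HHcy replicate 3, and the highest of each among the Pd7 controls was in replicate 3. The lowest marker was Fshr, at 0.27 FPKM in Pd3 controls and 3.53 in Pd3 F1-HHcy ovaries, and at 3.42 FPKM in Pd7 controls and 8.32 in Pd7 F1-HHcy ovaries. The part of these cells in the Foxo1 difference was not tested. Of the theca and stroma markers, 2 of 6 tested were called higher at Pd3 (Pdgfra and Nr2f2, with sums of 269 to 379 FPKM against 364 to 1125 over the 10 markers), and 7 of 10 were called higher at Pd7 (556.0 to 813.9 against 1459 to 1718 FPKM). Of 10 markers of the surface and oviduct epithelium, such as Krt8 and Epcam, 6 were called lower at Pd7 (507 to 876 against 221 to 407 FPKM) and 3 at Pd21 (384 to 606 against 132 to 256 FPKM). All 8 markers of multiciliated cells, which line the oviduct, were called lower at Pd21, with sums of 125.9 to 414.4 FPKM in controls and 11.5 to 18.1 in F1-HHcy ovaries, where Cfap43 averaged 0.074 FPKM. Among the epithelial markers the lowest was Pax8, at 0.55 FPKM in Pd21 F1-HHcy ovaries. These values stand beside the Pd21 differences of Ccnd1 and Cdkn1a, and their part in them was not tested. Red cell markers were also called lower, 6 of 6 at Pd3 and 5 of 5 tested at Pd7.

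**Figure D5:**
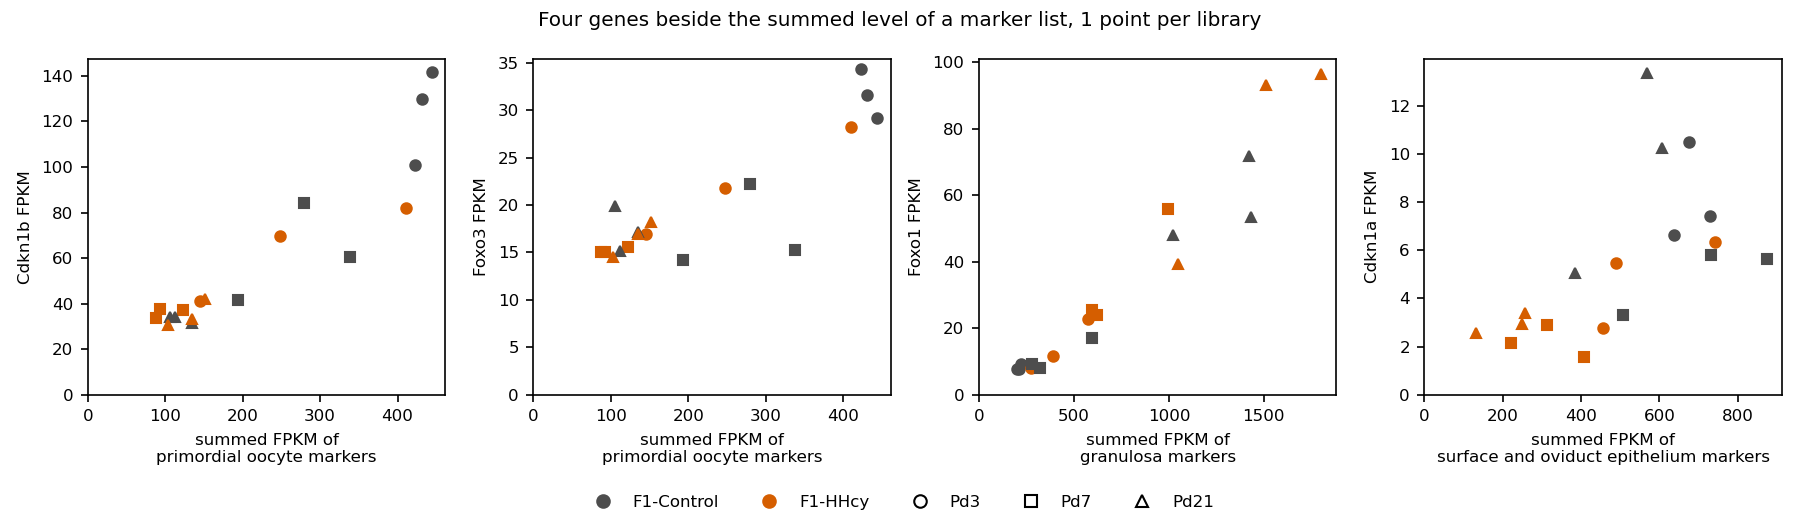
FPKM of Cdkn1b, Foxo3, Foxo1 and Cdkn1a (vertical axes) beside the summed FPKM of a cell type's markers (horizontal axes), 1 point per library, grey for F1-Control and orange for F1-HHcy, with circles for Pd3, squares for Pd7 and triangles for Pd21. The Pd3 controls, with primordial oocyte marker sums of 423.0 to 444.2 FPKM, have the highest Cdkn1b and Foxo3 levels, and the Pd21 libraries have the highest granulosa marker sums and most of the highest Foxo1 levels.

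Across the 18 libraries the levels of the 10 genes also varied together, which is given as a description because libraries of 1 group share a diet, a day and a batch. Pearson's r of log2(FPKM + 1) was 0.909 between Foxo6 and Ccnd3, 0.875 between Foxo3 and Cdkn1b, and -0.860 between Foxo1 and Cdkn1b. Among 13105 genes, those most like Foxo1 were Bcl11a (r = 0.987), Zadh2 (r = 0.986) and Bmpr1b (r = 0.982), the last a receptor of bone morphogenetic proteins. The genes most like Cdkn1b were Mageb4 (r = 0.979), Lgr4 (r = 0.975) and Shcbp1l (r = 0.971). Cdkn1a was most like Ankrd6 (r = 0.942), Ttc39a (r = 0.935) and Agr3 (r = 0.921), and Ccnd1 was most like Ezr (r = 0.852), Esr1 (r = 0.824) and Nfe2l3 (r = 0.819).

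Some of the genes overlap others in the annotation, and whether counting used the strand is not given in the sources used here. The gene LTO1, on the strand opposite Ccnd1, measured 3.62 to 6.03 FPKM over the 18 libraries, and Bysl, opposite Ccnd3, measured 2.56 to 7.34 FPKM. The antisense gene 9330179D12Rik at Ccnd2 measured 0.09 to 0.98 FPKM. Reads at these overlaps cannot be told apart without the strand.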

How the data were processed

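The authors deposited 1 linear value per gene symbol and library, with no unit named. FPKM was inferred as the unit of the deposited values because 1 whole length per gene turned them into whole fragments (within 0.05, or 0.2 for a few very abundant genes) for 100% of 27294 genes above 0 in at least 3 libraries. The submitters' processing notes name FastQC 0.11.9, Trimmomatic 0.39, STAR 2.7.9a, featureCounts 2.0.1, DESeq2 1.36.0 and GRCm38, without roles. Groups came from the labels.

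Genes reaching 1 FPKM in 3 or more libraries of a fit were compared on log2(FPKM + 1) with limma 3.58.1 (R 4.3.3), with the prior variance following the mean level. Diets were compared within each day (6 libraries), ages in 1 model of the 12 Pd3 and Pd7 libraries, and the diet by day term on all 18. The test was checked on simulated data. The 10 genes, the lists and the rule that names all 10 genes were chosen with earlier results of these data known. Same-numbered libraries deviated together, weakly, between Pd3 and Pd7 of F1-Control (r = 0.12, 0.24 and 0.26). Their numbers were therefore taken as pairs in a blocked fit, though no label states such pairs. Other pairs of groups did not meet this rule. No library was left out. Tables and figures used Python 3.11.15, pandas 2.3.3 and matplotlib 3.10.9.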

Additional observations from a re-analysis of the deposited data

How the results depend on the processing

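With 3 libraries a group, calls near the threshold moved with single libraries and with the filter. The counts below are of genes called, with those of the 10 genes in brackets, and the cause of each shift was not tested. With no filter on low values, the counts were 0 at Pd3 (408 with the filter), 91 (0 of 10) at Pd7 (1577 and 6), 37 (0) at Pd21 (298 and 1), 691 (1) for age in F1-Control (1765 and 2) and 241 (1) for age in F1-HHcy (621 and 3). With the replicate number as a block they were 1 at Pd3, 294 for age in F1-HHcy, and at Pd21 2 of the 10 genes. The block also brought Cdkn1b at Pd7 to an adjusted p of 0.0381 and Cdkn1a at Pd21 to 0.0276 (limma), took Ccnd3 with age in F1-HHcy to 0.0758, and changed no other call of the 10 genes. The replicate numbers did not pair the diets, whose same-numbered libraries correlated at -0.31 to 0.09 and were in no diet comparison each library's closest match throughout, and F1-HHcy with age gave -0.02 to 0.12. All 18 libraries in 1 model gave 881 (1, Cdkn1b) at Pd3 and 498 (2) at Pd21, and took Cdkn1a at Pd7 to an adjusted p of 0.0651 and Ccnd2 with age in F1-HHcy to 0.0540. By the looser criterion without adjustment (0.05 for p and 0.58 for the absolute log2 value) the counts were 1293 (2) at Pd3, 686 (2) at Pd21 and 1703 (6) for age in F1-HHcy. On recovered fragments limma-voom gave 389 for age in F1-HHcy and 421 (771 in limma-trend) for diet by day. Chosen after seeing the data were fits to the libraries of 1 diet. With only the 6 libraries of a diet, age gave 0 (0) in F1-HHcy, or 5 (0) with the block, and 2573 (4) in F1-Control with the block.

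When each library was left out in turn, the counts ranged from 0 to 2824 (0 to 5 of the 10 genes) at Pd3, 493 to 1845 (2 to 7) at Pd7, 1 to 185 (0 to 2) at Pd21, 249 to 2224 (0 to 2) for age in F1-Control, 0 to 1987 (0 to 7) for age in F1-HHcy and 282 to 1391 (0 to 2) for diet by day. Several differences that were not called changed sign in some of these fits. Among them was Ccnd1 at Pd3, which was -0.34 on the log2 scale with all libraries. Their log2 fold changes ranged from -0.30 to 0.0062 (Foxo4) and -0.72 to 0.095 (Ccnd1) at Pd3, from -0.26 to 0.050 (Foxo3) at Pd7, and from -0.15 to 0.033 (Foxo3), -0.22 to 0.26 (Ccnd2) and -0.050 to 0.17 (Cdkn1b) at Pd21. With age they ranged from -0.034 to 0.34 (Ccnd1) in F1-Control and from -0.085 to 0.22 (Foxo4) and -0.32 to 0.31 (Cdkn2c) in F1-HHcy. A pseudocount of 0.1 changed no call of the 10 genes. Median-ratio scaling and limma-voom each changed 1 of 60 results, Ccnd3 with age in F1-HHcy (adjusted p = 0.0555 and 0.0520).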
